A study of Rattus norvegicus with 15 samples.

Results

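Messenger RNA of 8 genes of the nuclear lamina and of the high mobility group (HMG) of chromatin proteins was followed in rat cultures exposed to x-rays. The authors describe the cells as brain microvascular endothelial cells (BMECs). A list of 9 genes was set by name (Lmna, Lmnb1, Lmnb2, Lbr, Tmpo, Hmgb1, Hmgb2, Hmga1 and Hmga2), and 8 of them were found among the 37367 genes of the table. Lbr, the lamin B receptor of the inner nuclear membrane, was not analysed here. A gene held all rows that carry its name, together with unnamed assembled transcripts of a locus with no other gene name, and the values of these rows were summed. The 8 genes had 32 transcripts, 12 with a gene name and 20 without. Primary BMECs came from the cerebral microvessels of Sprague-Dawley littermates aged 2 to 3 weeks, and all groups were cultured and handled alike apart from the exposure. The groups were unexposed controls labelled as cultured for 12 h, and cells collected 12 h or 24 h after a dose of 5 Gy or 20 Gy. Each group had 3 libraries, described as biological replicates. Without an unexposed culture of 24 h, the time after exposure and the time in culture cannot be told apart in the 24 h groups.

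The nuclear lamina is a meshwork of intermediate filaments under the inner nuclear membrane that gives the nucleus its shape and holds silent chromatin at its edge. Lmna encodes the A-type lamins A and C, and Lmnb1 and Lmnb2 encode the B-type lamins. Tmpo encodes the lamina-associated polypeptides of the LAP2 family, which link lamins to chromatin. HMGB1 and HMGB2 are box proteins that bend DNA, and HMGB1 can leave the nucleus and act as an alarm signal outside the cell. HMGA1 and HMGA2 bind AT-rich DNA in its minor groove and are abundant in dividing cells of the embryo. Loss of lamin B1 and of HMGB2 from the nucleus, release of HMGB1 and foci rich in HMGA proteins are widely used marks of senescence, a lasting arrest of the cell cycle after damage.

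Promoter letters are shown for Hmgb2 and Tmpo, which were lower together with Lmnb1 12 h after 5 Gy and are known as genes of dividing cells, and for Lmnb2, which was higher at 24 h than at 12 h. RefSeq promoter windows of the GRCr8 build, with 250 bases before and 50 bases after the gene start, were matched by symbol for the 8 members. The Hmgb1 window lies on chromosome 12 and is not that of the chromosome 16 row whose FPKM were measured. Letters of the cell cycle homology element (TTTGAA), the CCAAT box (CCAAT) and 2 E2F sites (TTCCCGC and TTGGCGC) were searched on both strands. The 250 bases before the start are printed 5′ to 3′ on the strand of the gene, with TTTGAA and CCAAT matches on either strand in capitals. The Hmgb2 stretch is chr16:37723951-37724200 (minus strand), that of Tmpo is chr7:27554936-27555185 (minus strand), and that of Lmnb2 is chr7:9443058-9443307 (plus strand).
Hmgb2: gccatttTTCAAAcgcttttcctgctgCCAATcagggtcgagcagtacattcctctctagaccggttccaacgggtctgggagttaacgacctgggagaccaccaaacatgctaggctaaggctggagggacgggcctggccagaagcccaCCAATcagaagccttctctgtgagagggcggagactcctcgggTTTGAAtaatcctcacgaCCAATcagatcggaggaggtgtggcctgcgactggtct
Tmpo: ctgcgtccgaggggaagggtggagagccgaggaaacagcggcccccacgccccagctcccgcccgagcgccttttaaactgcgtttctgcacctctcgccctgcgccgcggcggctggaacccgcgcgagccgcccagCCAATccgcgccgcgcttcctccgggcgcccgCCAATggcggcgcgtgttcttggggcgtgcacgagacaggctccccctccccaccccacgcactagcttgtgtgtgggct
Lmnb2: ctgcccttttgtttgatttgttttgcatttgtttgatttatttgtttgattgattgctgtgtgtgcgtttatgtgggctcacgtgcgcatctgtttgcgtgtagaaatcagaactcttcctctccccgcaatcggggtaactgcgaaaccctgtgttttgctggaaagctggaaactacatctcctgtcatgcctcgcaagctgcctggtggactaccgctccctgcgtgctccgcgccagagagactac
Hmgb2 held TTTGAA letters at bases 8 to 13 and 195 to 200 of its window and CCAAT letters at bases 28, 152 and 213. Tmpo held CCAAT at bases 139 and 171, and Lmnb2 held no match. Lmnb1 held TTTGAA at bases 141 to 146 and CCAAT at bases 194 to 198. Over the members, CCAAT was found in 5 of 8 windows, compared with 37.5% of the 33469 windows of the genome, and TTTGAA in 2 of 8, compared with 18.3%. The 5 windows with CCAAT include that of Hmgb1. TTCCCGC was found in 1 of 8, at bases 258 to 264 of Lmna, compared with 4.21% of all windows. TTGGCGC was found in 0 of 8, compared with 2.26%. These matches describe letters in a window and were not tested as binding sites.

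Expression is given as FPKM, fragments scaled to the length of the transcript and to the mapped fragments of the library, so levels can be compared between genes per length. Library depth, read from the steps between low values, was 5.44 to 7.49 gigabases of aligned sequence. The endothelial identity of the cultures was checked first. Of 16 endothelial markers, 14 were in the table and 4 had a mean above 1 FPKM in the control group, led by the glucose transporter Slc2a1 at 23.6 FPKM. The junction gene Cdh5 had a mean of 0.19 FPKM there, Cldn5 of 0.01 and Vwf of 0.06, and Tie1 and Emcn were listed at 0. Hspa8, a chaperone gene that every cell uses, was also listed at 0 in all 15 libraries, so a listed 0 in this table does not show that a gene was silent. The summed endothelial list lay between 18.7 and 35.2 FPKM over all libraries, and a list of 8 fibroblast markers, led by collagens, lay between 2215 and 2537 FPKM in the controls. The fibroblast list was 1718 to 2149 FPKM at 12 h and 796 to 932 FPKM at 24 h. Of its 7 tested members, 5 were called lower and 0 higher at 24 h after either dose, by the test given below. The list medians were −1.43 and −1.76 on the log2 scale, and 20.8% and 23.3% of all genes were called lower. Col3a1 (−4.26), Col1a2 (−4.17) and Dcn (−1.23) were lower 24 h after 5 Gy and Lum (−1.76) 24 h after 20 Gy. The members did not all move alike. Col1a1, a chain of type I collagen, had a mean of 516 FPKM in the controls and 27 and 31.4 FPKM 24 h after 5 Gy and 20 Gy, whereas Pdgfra, a growth factor receptor of fibroblasts, had 52.1, 60.8 and 51.6 FPKM and Fbln1, a matrix gene, 502, 581 and 567 FPKM. A list of 6 astrocyte markers summed to 517 to 764 FPKM in the controls. The astrocyte sum was 467 to 1177 FPKM at 12 h and 323 to 436 FPKM at 24 h. A list of 10 pericyte and smooth muscle markers summed to 91.2 to 99.8 FPKM in the controls. That sum was 76.1 to 93.8 FPKM at 12 h and 40.6 to 67.3 FPKM at 24 h. A list of heat shock genes summed to 441 to 516 FPKM in the controls and 406 to 455 FPKM at 12 h. At 24 h, the heat shock sum was 2516 to 3314 FPKM after 5 Gy and 8252 to 9987 FPKM after 20 Gy. The part of these shifts in the results below was not tested, and in bulk RNA fewer cells of a type and less RNA per cell cannot be told apart.

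Compared with the controls, 6 of the 8 genes were lower 12 h after 5 Gy (Lmnb1, Lmnb2, Tmpo, Hmgb1, Hmgb2 and Hmga1), and 2 were lower 12 h after 20 Gy (Lmnb1 and Hmgb2). At 24 h, 6 genes were lower after either dose (Lmna, Lmnb1, Tmpo, Hmgb1, Hmga1 and Hmga2), whereas Lmnb2 and Hmgb2 did not pass the test. None of the 8 passed the test as higher than the controls. A gene was called at a limma adjusted p (Benjamini-Hochberg over 17895 genes, two-sided) below 0.05, provided that it changed at least 1.5-fold on the log2(FPKM + 1) scale, which understates changes of low genes. Of all genes tested, 9.94% were called 12 h after 5 Gy (4.96% lower), 8.54% 12 h after 20 Gy (3.64% lower), 41.3% 24 h after 5 Gy (20.8% lower) and 40.3% 24 h after 20 Gy (23.3% lower). The median log2 difference of the 8 genes from the controls was −0.81 12 h after 5 Gy, −0.53 12 h after 20 Gy, −1.12 24 h after 5 Gy and −1.18 24 h after 20 Gy. Over all genes, the same medians were 0.03, 0.01, −0.05 and −0.14. The 4 comparisons share the same 3 control libraries.

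**Figure D1:**
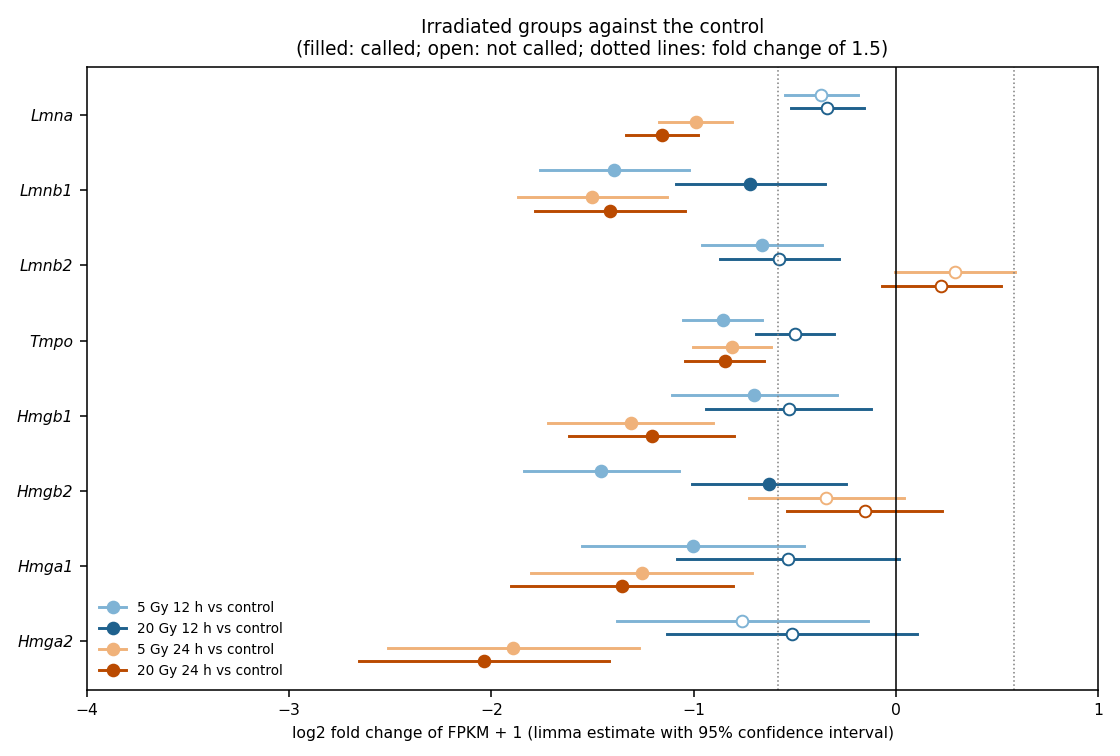
Each point is the limma estimate of the log2 fold change of FPKM + 1 against the control group (x axis) for 1 gene (y axis), with its 95% confidence interval; filled points were called and dotted lines mark a fold change of 1.5. At 24 h, 6 of the 8 genes lie left of −0.58 after both doses, and Lmnb2 lies right of 0.

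Lmnb1 had the largest difference from the controls of the 4 lamina genes in each of the 4 comparisons. Its FPKM was 21.1, 26.5 and 26.5 in the control libraries, 8.96, 9.97 and 7.43 at 12 h after 5 Gy, and 14.9, 17.3 and 11.8 at 12 h after 20 Gy. At 24 h, it was 7.69, 10.3 and 6.49 after 5 Gy and 7.85, 8.44 and 9.54 after 20 Gy. Every exposed library was below every control library. The log2 difference from the controls was −1.39 (SE 0.17, limma adjusted p = 0.000137) 12 h after 5 Gy and −0.72 (SE 0.17, adjusted p = 0.0121) 12 h after 20 Gy. It was −1.50 (adjusted p = 7.88e-06) and −1.41 (adjusted p = 1.41e-05) 24 h after 5 Gy and 20 Gy. Without the third 20 Gy 12 h library, the difference 12 h after 20 Gy was −0.58 and no longer called. With only the row that carries the gene name, it was −0.33 (adjusted p = 0.409) and was not called either.

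Tmpo, the lamin-binding partner, showed tight replicates. Its control libraries held 48.1, 49.8 and 47.5 FPKM. At 12 h, Tmpo was 25.3, 27.3 and 26.5 FPKM after 5 Gy and 35.2, 37.5 and 29.8 FPKM after 20 Gy. At 24 h, values of 28.0, 28.5 and 25.3 FPKM after 5 Gy and 27.4, 28.3 and 24.0 FPKM after 20 Gy were measured. No exposed group overlapped the controls. The log2 difference was −0.86 (SE 0.09, limma adjusted p = 4.46e-05) 12 h after 5 Gy, −0.81 (adjusted p = 6.43e-06) 24 h after 5 Gy and −0.85 (adjusted p = 4.60e-06) 24 h after 20 Gy. At 12 h after 20 Gy it was −0.50 (adjusted p = 0.00243), under the fold limit of 1.5. With only rows that carry the gene name, Tmpo was not called at 24 h (−0.38 after 5 Gy and −0.53 after 20 Gy). On these rows, Tmpo was called as higher at 24 h than at 12 h after 5 Gy (0.65, limma adjusted p = 0.00623).

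Lmna was the most abundant lamin in every group. It stood at 140, 150 and 140 FPKM in the controls, 111, 109 and 112 FPKM 12 h after 5 Gy, and 122, 114 and 104 FPKM 12 h after 20 Gy. After 24 h, Lmna was 75.0, 68.7 and 71.3 FPKM for 5 Gy and 64.3, 56.7 and 70.9 FPKM for 20 Gy. The groups formed 3 levels without overlap, with the controls highest, both 12 h groups in between and both 24 h groups lowest. Differences at 12 h were −0.37 (SE 0.08, limma adjusted p = 0.00790) after 5 Gy and −0.34 (adjusted p = 0.0147) after 20 Gy, both under the fold limit. At 24 h, Lmna fell by 0.99 (adjusted p = 5.67e-07) after 5 Gy and by 1.16 (adjusted p = 1.67e-07) after 20 Gy on the log2 scale.

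Lmnb2 followed a course unlike that of the other lamins. The control values were 16.6, 18.3 and 16.5 FPKM. At 12 h, Lmnb2 was 10.7, 11.1 and 9.56 FPKM after 5 Gy and 10.4, 12.3 and 10.8 FPKM after 20 Gy. At 24 h, it was 22.7, 19.3 and 21.5 FPKM after 5 Gy and 22.0, 15.4 and 24.1 FPKM after 20 Gy. All 12 h libraries lay below the controls and all 24 h libraries lay above the 12 h libraries, and at 24 h only the 20 Gy group overlapped the controls. Lmnb2 fell by 0.66 (SE 0.14, limma adjusted p = 0.00480) 12 h after 5 Gy. The difference 12 h after 20 Gy was −0.58 (adjusted p = 0.0121), just under the fold limit, and it was called without control replicate 1 (−0.60), without control replicate 3 (−0.60) or without the second 20 Gy 12 h library (−0.64). At 24 h, the differences from the controls were 0.29 (adjusted p = 0.0824) after 5 Gy and 0.23 (adjusted p = 0.174) after 20 Gy.

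**Figure D2:**
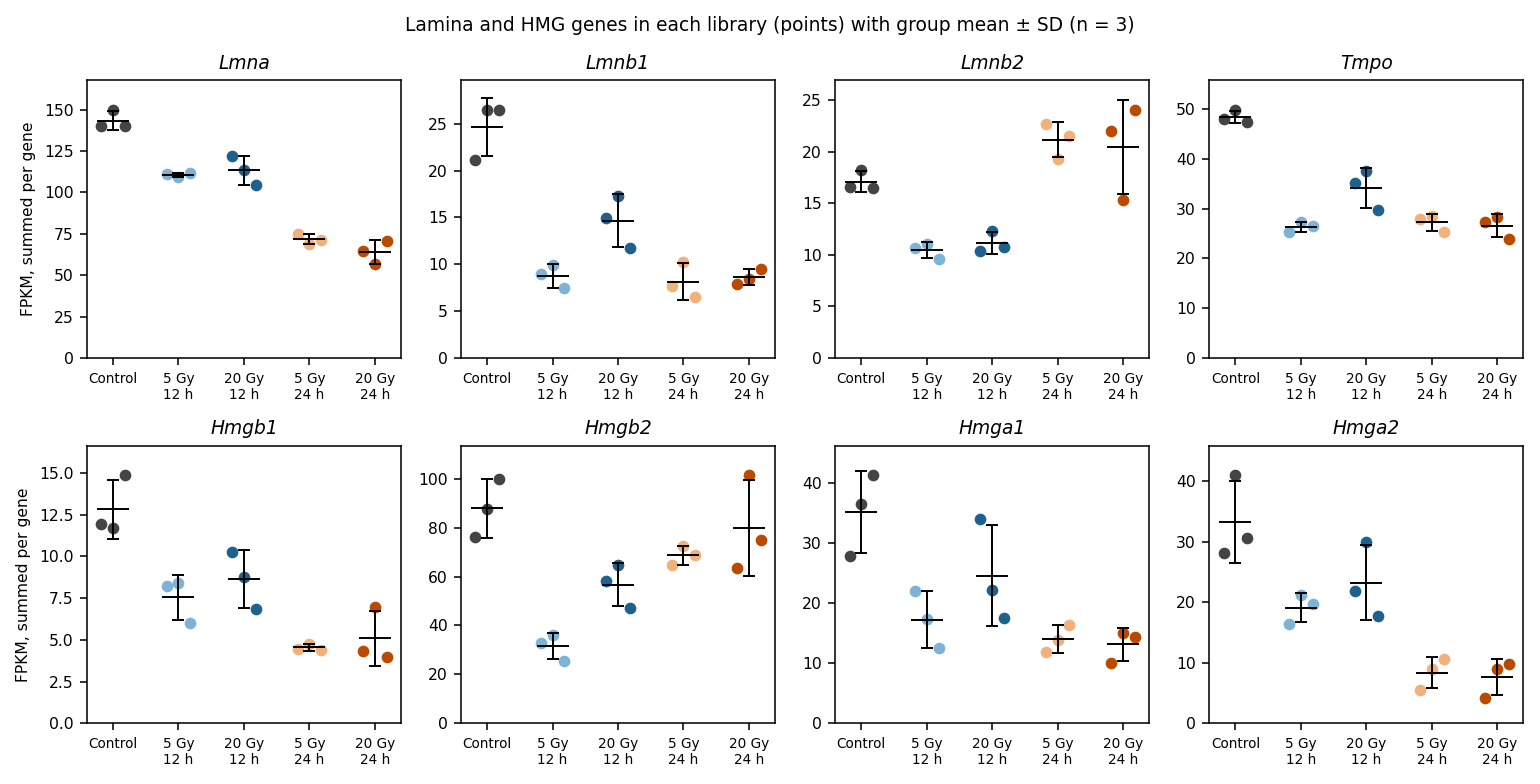
FPKM summed per gene (y axis, linear from 0) in each library (points) of the 5 groups (x axis), with the mean ± SD of 3 libraries. Lmna steps down from controls to 12 h to 24 h, Lmnb2 and Hmgb2 are lowest at 12 h, and Lmnb1 lies below all controls in every exposed library.

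Among the HMG box genes, Hmgb2 was lowest at 12 h and near the control level at 24 h. The controls held 76.0, 87.6 and 99.9 FPKM. At 12 h, Hmgb2 was 32.7, 36.1 and 25.7 FPKM after 5 Gy and 58.0, 64.7 and 47.2 FPKM after 20 Gy. At 24 h, 64.7, 72.3 and 68.9 FPKM were measured after 5 Gy and 63.3, 101 and 74.7 FPKM after 20 Gy. The 20 Gy 24 h libraries overlapped the controls, and the 5 Gy 24 h libraries lay just below them. Hmgb2 fell by 1.46 (SE 0.18, limma adjusted p = 0.000126) 12 h after 5 Gy and by 0.63 (adjusted p = 0.0282) 12 h after 20 Gy. The 20 Gy call was lost without control replicate 2 (−0.63, adjusted p = 0.0744), without control replicate 3 (−0.53), and without the first (−0.65, adjusted p = 0.0561) or the third (−0.50) 20 Gy 12 h library. It was also lost when only named rows were tested (−0.63, adjusted p = 0.0545). At 24 h, the differences were −0.34 (95% interval −0.72 to 0.04, adjusted p = 0.110) after 5 Gy and −0.16 (−0.54 to 0.23, adjusted p = 0.469) after 20 Gy.

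Hmgb1 was 11.9, 11.7 and 14.8 FPKM in the controls. At 12 h, it was 8.20, 8.40 and 6.0 FPKM after 5 Gy and 10.3, 8.78 and 6.83 FPKM after 20 Gy. At 24 h, it was 4.43, 4.78 and 4.42 FPKM after 5 Gy and 4.34, 6.98 and 3.94 FPKM after 20 Gy. No exposed library reached the lowest control. The log2 difference was −0.70 (SE 0.19, limma adjusted p = 0.0205) 12 h after 5 Gy, −1.31 (adjusted p = 5.76e-05) 24 h after 5 Gy and −1.21 (adjusted p = 0.000123) 24 h after 20 Gy. It was −0.53 (adjusted p = 0.0731) 12 h after 20 Gy, and the 12 h call after 5 Gy was lost without control replicate 3 (−0.60, adjusted p = 0.0865) or the third 5 Gy 12 h library (−0.56, adjusted p = 0.0884).

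This Hmgb1 row is a single-exon transcript on chromosome 16 of Rnor_6.0 (37500017 to 37502237, plus strand), whereas RefSeq places the protein-coding Hmgb1 on chromosome 12 in GRCr8 and lists many pseudogene copies. A locus on chromosome 12 of Rnor_6.0 (6957246 to 7094002), named AABR07035218.1 and, like RefSeq's Hmgb1, close to Uspl1, held 10 transcripts and a mean of 76.0 ± 8.61 FPKM (SD, n = 3) in the controls. As percentages of the control mean, in the order 5 Gy 12 h, 20 Gy 12 h, 5 Gy 24 h and 20 Gy 24 h, this locus stood at 59.7, 72.9, 37.9 and 42.4. The Hmgb1 row stood at 58.8, 67.3, 35.4 and 39.7, and Hmg1l1 on chromosome 19, a symbol that RefSeq gives as a synonym of a pseudogene, at 58.6, 69.9, 36.2 and 37.8. All 3 were lowest at 24 h. Near-identical copies can share reads, so the level of Hmgb1 is uncertain and its course was shared by the 3 rows. Hmgb2 has a spliced row of 5 exons (chromosome 16 of Rnor_6.0, 36077617 to 36080191, minus strand). A single-exon copy, Hmgb2l1 on chromosome 11, stood at 37.9, 70.8, 70.8 and 76.5% of its control mean, compared with 35.9, 64.4, 78.2 and 90.8% for Hmgb2.

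**Figure D3:**
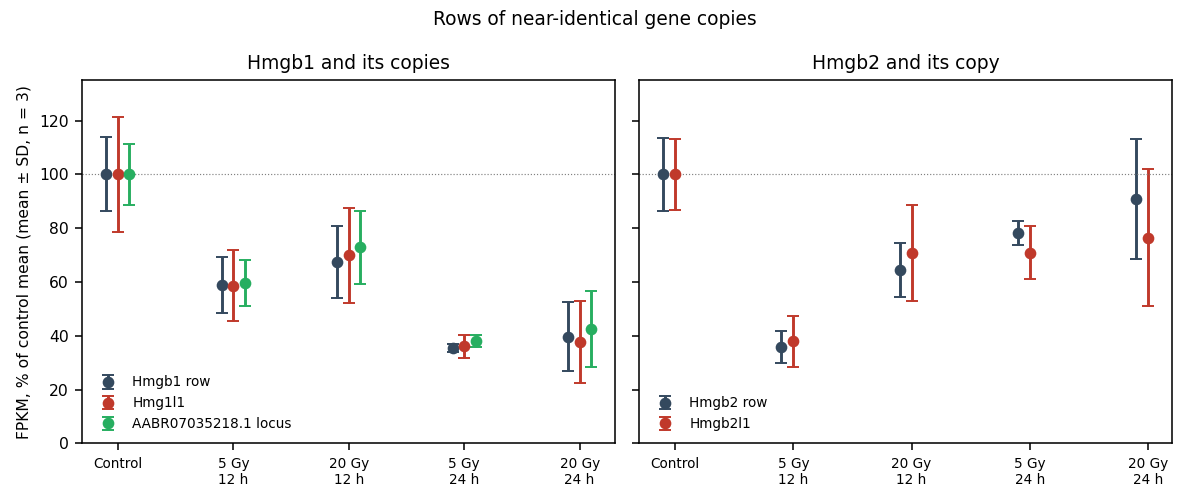
FPKM as a percentage of the control mean (y axis, mean ± SD, n = 3) in the 5 groups (x axis) for Hmgb1, Hmgb2 and the rows of their copies. The Hmgb1 rows stand at 35.4 to 42.4% at 24 h, and Hmgb2 is lowest 12 h after 5 Gy at 35.9%.

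The HMGA genes were both lower at 24 h. Hmga1 was 27.8, 36.5 and 41.3 FPKM in the controls, 22.0, 17.3 and 12.5 FPKM 12 h after 5 Gy, and 34.0, 22.2 and 17.6 FPKM 12 h after 20 Gy. At 24 h, Hmga1 was 11.8, 13.9 and 16.4 FPKM after 5 Gy and 10.0, 15 and 14.4 FPKM after 20 Gy. Only the 20 Gy 12 h group overlapped the controls. The log2 difference was −1.0 (SE 0.25, limma adjusted p = 0.0151) 12 h after 5 Gy, −0.53 (adjusted p = 0.179) 12 h after 20 Gy, −1.26 (adjusted p = 0.000865) 24 h after 5 Gy and −1.36 (adjusted p = 0.000513) 24 h after 20 Gy. Its 12 h call after 5 Gy was lost without control replicate 2 (−0.97, adjusted p = 0.0505), control replicate 3 (−0.88) or the third 5 Gy 12 h library (−0.80). A share of 3.76% of its mean FPKM came from the row with a gene name, and the rest from unnamed transcripts of the locus. On the named row alone, Hmga1 was not called (−0.16 for 5 Gy at 12 h, and −0.06 and −0.22 for the 24 h groups).

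Hmga2, expressed mostly in embryonic and transformed cells, had the largest difference of the 8 genes at 24 h. Control values were 28.2, 40.9 and 30.6 FPKM. At 12 h, Hmga2 was 16.4, 21.2 and 19.6 FPKM after 5 Gy and 21.9, 29.9 and 17.8 FPKM after 20 Gy. At 24 h, it was 5.59, 8.92 and 10.6 FPKM after 5 Gy and 4.23, 8.90 and 9.82 FPKM after 20 Gy. Every 24 h library was below every control and every 12 h library. Hmga2 fell by 1.89 (SE 0.29, limma adjusted p = 8.93e-05) 24 h after 5 Gy and by 2.04 (adjusted p = 5.13e-05) 24 h after 20 Gy. At 12 h, the differences were −0.76 (adjusted p = 0.0840) and −0.51 (adjusted p = 0.257). With the replicate number as a block, the adjusted p 12 h after 5 Gy was 0.0312 and Hmga2 was called.

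Between 12 h and 24 h after 5 Gy, 5 of the 8 genes were called, with 2 higher and 3 lower at 24 h, against 36.4% of all genes called. Lmnb2 rose by 0.96 (SE 0.14, limma adjusted p = 6.86e-05) and Hmgb2 by 1.11 (SE 0.18, adjusted p = 0.000157). Lmna fell by 0.62, Hmgb1 by 0.61 and Hmga2 by 1.13. The Hmgb1 call was lost without the first (−0.55, adjusted p = 0.0516) or second (−0.53) 5 Gy 12 h library, and the calls of Lmna and Hmgb1 were lost after scaling to TPM. After 20 Gy, 6 of the 8 were called, 1 higher and 5 lower, against 36.3% of all genes. Lmnb2 again rose, by 0.80 (adjusted p = 0.000293), and Lmna (−0.82), Lmnb1 (−0.69), Hmgb1 (−0.68), Hmga1 (−0.82) and Hmga2 (−1.52) fell. Hmgb2 was 0.47 higher (adjusted p = 0.0367), under the fold limit, and was called without the first 20 Gy 24 h library (0.62). Calls after 20 Gy were lost for Lmnb1 without the second 20 Gy 12 h library (−0.57), for Hmgb1 without the first 20 Gy 12 h (−0.56) or the third 20 Gy 24 h library (−0.54), and for Hmga1 without the first 20 Gy 12 h (−0.57) or the first 20 Gy 24 h library (−0.65). The 12 h and 24 h groups also differed in the heat shock and fibroblast sums given above.

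The 2 doses were then compared within a time. At 12 h, 0 of the 8 genes were called, against 0.123% of all genes, and 3 had an unadjusted limma p below 0.05. These 3 were Lmnb1, Tmpo and Hmgb2, each higher after 20 Gy than after 5 Gy without overlap of the libraries. How many of all genes met the unadjusted level, or lay without overlap, was not counted, so these 3 have no background share. The difference was 0.67 (95% interval 0.30 to 1.04, limma adjusted p = 0.204) for Lmnb1, 0.36 (0.16 to 0.55, adjusted p = 0.197) for Tmpo and 0.83 (0.45 to 1.21, adjusted p = 0.104) for Hmgb2. A two-sided exact permutation test gave p = 0.1 for each, the smallest it allows for 3 libraries against 3. Lmna differed by 0.03 (−0.15 to 0.21) and Lmnb2 by 0.09 (−0.21 to 0.38), with overlapping libraries. At 24 h, 0 of the 8 were called, against 2.42% of all genes, and 0 had an unadjusted p below 0.05. The 24 h differences ranged from −0.17 (Lmna, −0.35 to 0.01) to 0.19 (Hmgb2, −0.19 to 0.57). The change from 12 h to 24 h was not called as different between the doses for any of the 8. Over all genes, 0.553% were called at an adjusted p below 0.05. For this change, 3 members had an unadjusted limma p below 0.05, again Lmnb1, Tmpo and Hmgb2. The share of all genes at that unadjusted level was not counted either.

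Ratios within a library do not depend on the scaling between libraries. The ratio of Lmnb2 to Lmnb1, the 2 B-type lamins, was 0.62, 0.69 and 0.79 (lowest, median and highest) in the controls and 1.11, 1.19 and 1.29 at 12 h after 5 Gy. The 20 Gy group of that time had ratios of 0.70, 0.71 and 0.92, which overlapped the controls (exact permutation p = 0.4). The ratio was 1.88, 2.95 and 3.31 at 24 h after 5 Gy and 1.82, 2.52 and 2.81 at 24 h after 20 Gy. By these gene sums, the B-type lamin with the higher FPKM was Lmnb1 in all control libraries and Lmnb2 in all 24 h libraries. On the annotated transcripts alone, the controls held 14.3, 14.9 and 12.8 FPKM of Lmnb2 and 9.30, 12.6 and 13.5 FPKM of Lmnb1. The order of the B-type lamins in the controls thus depends on the unnamed assembled transcripts. The ratio of Lmna to Lmnb1 had a mean of 5.86 ± 0.70 (SD, n = 3) in the controls and of 12.8 ± 2.08 at 12 h after 5 Gy, without overlap. It was 7.87 ± 1.19 at 12 h after 20 Gy, which overlapped the controls (exact permutation p = 0.2), and 9.14 ± 2.22 and 7.45 ± 0.73 at 24 h after 5 Gy and 20 Gy, without overlap. For the chromosome 16 row of Hmgb1 to Hmgb2, the mean ratio was 0.146 ± 0.012 in the controls, 0.239 ± 0.010 and 0.153 ± 0.022 at 12 h after the lower and the higher dose, and 0.0662 ± 0.0022 and 0.0634 ± 0.0092 at 24 h. The HMGB ratio at 24 h was thus below, and at 12 h after 5 Gy above, every control library. With the chromosome 12 locus in place of that row, the ratio was 0.870 ± 0.076 in the controls, 1.45 ± 0.05 and 0.978 ± 0.107 at 12 h, and 0.420 ± 0.013 and 0.401 ± 0.061 at 24 h, and the same groups lay apart from the controls. Hmga1 to Hmga2 was 1.08 ± 0.24 in the controls, overlapped them in both 12 h groups, and was 1.74 ± 0.32 and 1.84 ± 0.47 at 24 h, without overlap. Each difference without overlap had an exact permutation p of 0.1, the smallest possible.

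**Figure D4:**
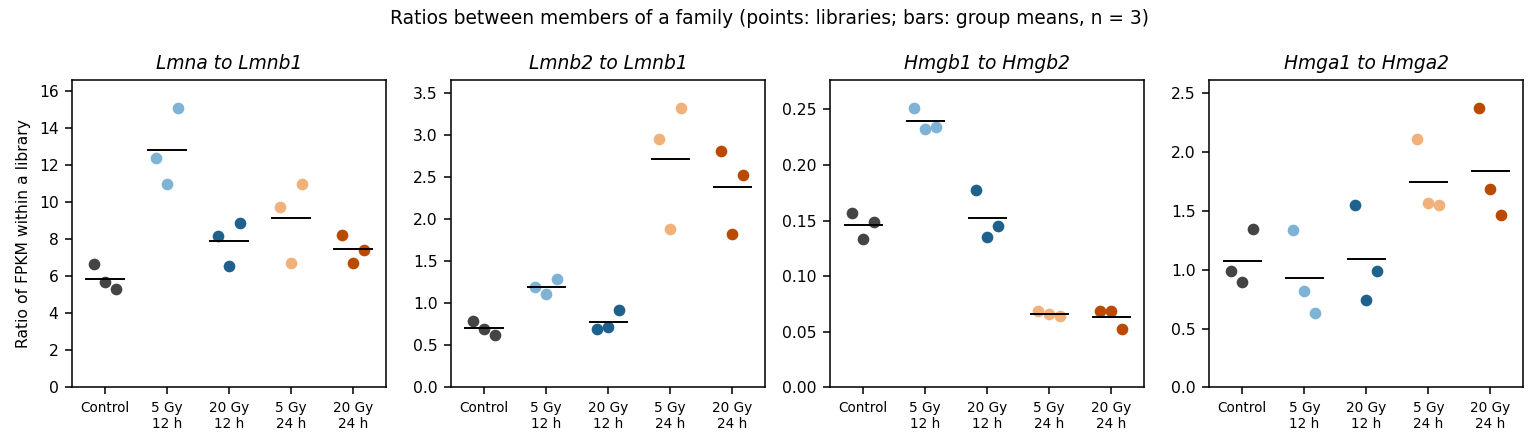
Ratio of FPKM, summed per gene, within each library (y axis, linear from 0) for 4 pairs of genes in the 5 groups (x axis). Points are libraries and bars are the mean of 3. The Lmnb2 to Lmnb1 ratio is below 1 in the controls and above 1.8 in all 24 h libraries, and the Hmgb1 to Hmgb2 ratio is highest 12 h after 5 Gy.

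Gene sums were then opened into single transcripts, whose reads are shared between overlapping models. Of the 32 transcripts, 25 had a mean FPKM of at least 0.5 and were tested among 41932. At 12 h, 6 fell after 5 Gy (4.33% of all transcripts called) and 1 fell after 20 Gy (3.70%). At 24 h, 1 rose and 8 fell after 5 Gy (24.1%), and 2 rose and 8 fell after 20 Gy (24.2%). The single call 12 h after 20 Gy, of the 3461-base Lmnb1 transcript, was lost without each control library in turn and without the third 20 Gy 12 h library.

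Both transcripts of Lmnb1 were lower at 24 h. The annotated transcript of 2148 bases was 9.30, 12.6 and 13.5 FPKM in the controls, 6.40, 7.33 and 4.16 FPKM 24 h after 5 Gy and 6.74, 6.11 and 8.36 FPKM 24 h after 20 Gy. An assembled transcript of 3461 bases went from 11.8, 13.9 and 13 FPKM to 1.29, 2.96 and 2.33 FPKM after 5 Gy and to 1.11, 2.32 and 1.18 FPKM after 20 Gy. The log2 differences 24 h after 5 Gy were −0.89 (limma adjusted p = 0.00855) for the annotated and −2.15 (adjusted p = 4.54e-05) for the assembled transcript, and the difference between them was not tested. For Tmpo, an assembled transcript of 4579 bases was 16.8, 19.3 and 15.4 FPKM in the controls and 3.58, 3.59 and 3.51 FPKM 24 h after 5 Gy (−1.99, adjusted p = 1.00e-05). The annotated Tmpo transcript of 3549 bases was 26.9, 27.4 and 30.6 FPKM in the controls and 22.1, 21.7 and 20.9 FPKM 24 h after 5 Gy (−0.38, adjusted p = 0.117). It was 14.1, 15.2 and 11.1 FPKM 12 h after 5 Gy (−1.03, limma adjusted p = 0.00413). From 12 h to 24 h after 5 Gy, it rose by 0.65 (adjusted p = 0.0134), whereas the 4579-base transcript moved by −1.21 (adjusted p = 0.00053), both called. After 20 Gy, the same changes were −0.07, not called, and −1.34, called.

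Assembled transcripts of Lmnb2 were higher at 24 h than in the controls. One of 4286 bases was 2.04, 1.60 and 2.44 FPKM in the controls, 3.82, 3.67 and 4.46 FPKM 24 h after 5 Gy and 4.38, 3.03 and 4.78 FPKM 24 h after 20 Gy. It rose by 0.72 (limma adjusted p = 0.0141) and by 0.73 (adjusted p = 0.0131) on the log2 scale. Another of 3062 bases was at most 0.13 FPKM in the controls and 1.85, 1.42 and 5.50 FPKM 24 h after 20 Gy, a rise of 1.72 (adjusted p = 0.000943). The annotated Lmnb2 transcript of 2067 bases differed from the controls by 0.05 (adjusted p = 0.866) and −0.32 (adjusted p = 0.130) at 24 h. From 12 h to 24 h, Lmnb2 was called after 5 Gy (0.69, adjusted p = 0.00156) and not after 20 Gy (0.20, adjusted p = 0.283) when only this row was used.

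Transcript values of Lmna and Hmga2 were unstable between replicates. An annotated Lmna transcript of 3075 bases had 23.9 to 30.2 FPKM in 3 libraries and at most 0.00448 FPKM in the other libraries, beside a model of 3073 bases that starts and ends within 2 bases of it. The annotated Hmga2 transcript of 805 bases was 4.88, 37.5 and 1.14 FPKM within the controls, where an assembled one of 3835 bases was 17.4, 0.19 and 18.5 FPKM. The Hmga2 sums of these libraries were 28.2, 40.9 and 30.6 FPKM. Using only rows with a gene name, Hmga2 differed from the controls by −0.32 (adjusted p = 0.862) and −0.55 (adjusted p = 0.760) at 24 h, so its calls rest on the sum over transcripts.

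**Figure D5:**
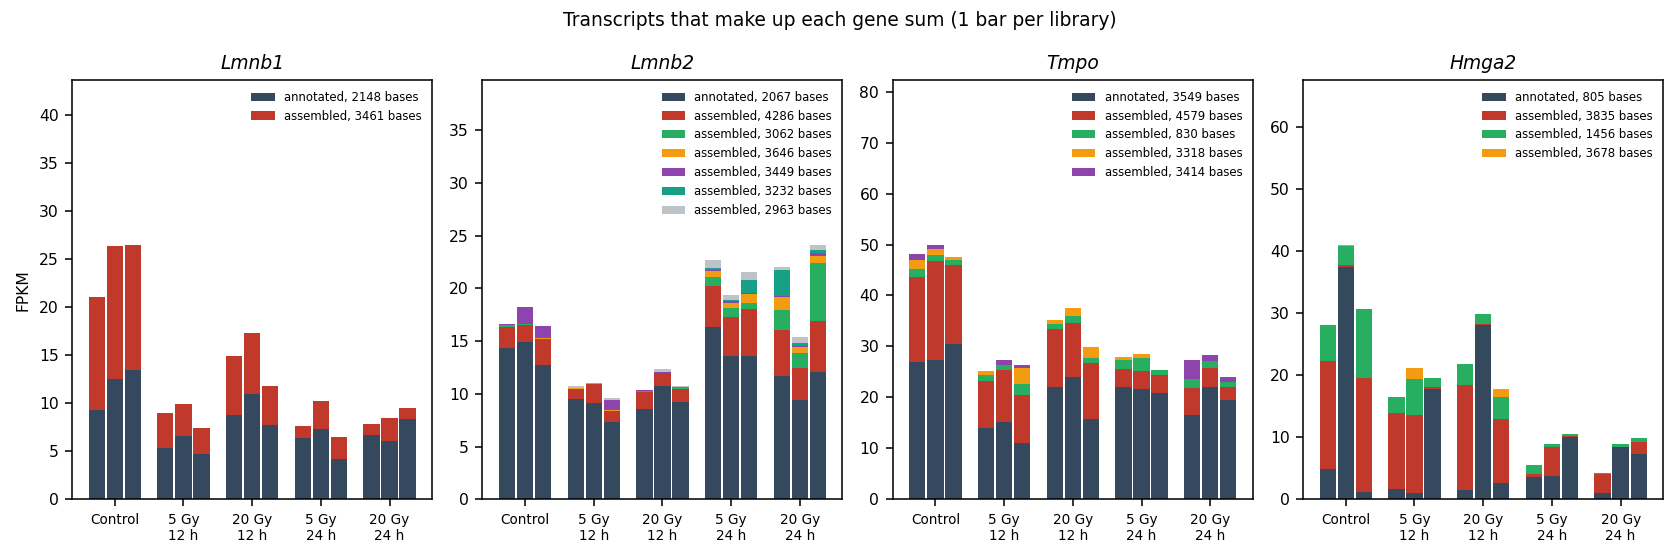
FPKM (y axis, linear from 0) of each transcript, stacked to the gene sum, with 1 bar per library in the 5 groups (x axis); annotated transcripts are at the base and assembled ones above. In Lmnb1 and Tmpo the assembled 3461-base and 4579-base transcripts shrink most by 24 h, in Lmnb2 assembled transcripts are added at 24 h, and in Hmga2 the split varies between replicates.

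The order of the levels, taken from gene sums, changed with time. In the controls it ran Lmna (143 FPKM), Hmgb2 (87.8), Tmpo (48.5), Hmga1 (35.2), Hmga2 (33.2), Lmnb1 (24.7), Lmnb2 (17.1) and Hmgb1 (12.8), and of these neighbours only Hmga1 and Hmga2 overlapped. The place of Hmgb1 is that of its chromosome 16 row and is uncertain, since the chromosome 12 locus had a mean of 76.0 FPKM in the controls. At 24 h after 20 Gy it ran Hmgb2 (79.8), Lmna (64.0), Tmpo (26.6), Lmnb2 (20.5), Hmga1 (13.2), Lmnb1 (8.61), Hmga2 (7.65) and Hmgb1 (5.09). There, the neighbours Hmgb2 and Lmna, Tmpo and Lmnb2, Lmnb1 and Hmga2, and Hmga2 and Hmgb1 overlapped.

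Across the 15 libraries, which share the group differences, Pearson r of log2(FPKM + 1) was 0.95 between Lmnb1 and Tmpo, 0.92 between Lmna and Hmga2, and 0.91 between Hmgb1 and Hmga1. Lmnb2 had r of −0.52 with Lmna and 0.67 with Hmgb2. Among 9553 genes with a mean FPKM of at least 5, the 3 most like Lmnb1 were Uhrf1 (r = 0.96), Haus4 (0.96) and Rpa2 (0.96). Uhrf1 maintains DNA methylation, Haus4 belongs to the augmin complex of the spindle and Rpa2 coats single-stranded DNA. Tmpo was closest to Lmnb1, Dnmt1 (0.95) and LOC100911727 (0.95), and Lmna to Fasn (0.99), the fatty acid synthase, Triobp (0.99) and Mlf2 (0.98). Hmga1 was closest to Tnfrsf12a (0.99), Slc29a1 (0.98) and Colec12 (0.98), and Hmga2 to Ncaph2 (0.98), Slx1b (0.98) and Tmem119 (0.97). The nearest to Hmgb1 was the chromosome 12 locus (0.99), followed by LOC108349189 (0.99) and an unnamed assembled locus (0.99). The nearest to Hmgb2 were its copy Hmgb2l1 (0.99), an unnamed assembled locus (0.98) and the replication factor Tipin (0.89). Sf1 (0.96) and Prkab1 (0.95) were the nearest named genes for Lmnb2, after an unnamed assembled locus.

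Partners of the lamina were called in both directions. Of 31 listed genes of the nuclear envelope, 26 were tested. At 12 h, 2 were higher and 2 lower after 5 Gy, and 2 were higher and 1 lower after 20 Gy, where 9.94% and 8.54% of all genes were called. The list had 5 higher and 3 lower 24 h after 5 Gy and 6 higher and 5 lower 24 h after 20 Gy, and a median log2 difference of 0.09 and −0.02. These calls are 8 and 11 of 26, and over all genes 41.3% and 40.3% were called at 24 h, so the list's share was no higher after 5 Gy and near that of all genes after 20 Gy. Nrm, encoding the membrane protein nurim, went from 10.3 FPKM in the controls to 0.90 FPKM 24 h after 5 Gy (−2.56, limma adjusted p = 5.54e-08), and it also fell 12 h after 5 Gy (−1.80) and 20 Gy (−1.42). Banf1, whose product tethers chromatin to LEM-domain proteins such as LAP2, went from 71.1 to 31.3 FPKM 24 h after 5 Gy (−1.15, adjusted p = 4.57e-06), and Syne3, an outer membrane partner of the SUN proteins, fell by 1.32 there. Emd, encoding the LEM-domain protein emerin, was 17.1 FPKM in the controls and 33.3 FPKM 24 h after 20 Gy (0.91, adjusted p = 1.87e-05). Nup153 (1.21 24 h after 20 Gy) and Lpin1 (1.62 24 h after 5 Gy) also rose.

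Of 23 other HMG box, HMGN and partner genes, 19 were tested, and 0 rose and 3 fell at 12 h after either dose. Over all genes, 9.94% were called 12 h after 5 Gy (4.96% lower) and 8.54% 12 h after 20 Gy (3.64% lower). At 24 h, 4 rose and 5 fell after 5 Gy, and 3 rose and 5 fell after 20 Gy, with medians of −0.16 and −0.15. These 9 and 8 of 19 are close to the 41.3% and 40.3% of all genes. Hmgb3, another HMGB gene, fell at all 4 comparisons, from 5.09 FPKM in the controls to 0.98 FPKM 24 h after 20 Gy (−1.61, limma adjusted p = 4.75e-07). Hmgxb4 rose by 1.26 24 h after 5 Gy, Tox by 0.81 24 h after 20 Gy, whereas Hmgxb3 (−1.35), Capn1 (−1.77) and Apex1 (−0.78) fell 24 h after 20 Gy. Of 7 genes for HMGB1 receptors and export, 5 were tested, with list medians of 0.31 and 0.37 at 24 h. Only 1 of these 5 was called at 24 h, as higher after either dose, where 41.3% and 40.3% of all genes were called. This was Xpo1, the nuclear export receptor, at 49.8 FPKM in the controls and 222 FPKM 24 h after 5 Gy (2.14, adjusted p = 3.95e-09), whereas Ager was 4.08 and 4.57 FPKM and Tlr4 5.20 and 7.89 FPKM. Of 7 genes that act on Hmga2 mRNA or on let-7 maturation, 5 were tested, with list medians of 0.85 and 0.90 at 24 h. Where 41.3% and 40.3% of all genes were called at 24 h, 2 of these 5 rose after 5 Gy and 3 after 20 Gy. The latter were Igf2bp1 (1.02), Igf2bp2 (0.90) and Dicer1 (0.87), and Lin28b was listed at 0, as was Hspa8.

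Other genes used as marks of senescence were called in both directions. Of 30 listed, 19 were tested, and 3 rose and 4 fell at 12 h after either dose. At 12 h, 9.94% of all genes were called after 5 Gy and 8.54% after 20 Gy. At 24 h, 6 rose and 6 fell after 5 Gy, and 4 rose and 6 fell after 20 Gy, with list medians of −0.50 and −0.28. The called genes were 12 and 10 of 19, beside 41.3% and 40.3% of all genes. Cdkn1a, the p21 inhibitor of cyclin-dependent kinases, was 46.8 FPKM in the controls, 257 and 631 FPKM 12 h after 5 Gy and 20 Gy, and 334 and 640 FPKM at 24 h. Gdf15, a secreted stress cytokine, rose by 4.68 24 h after 5 Gy and by 5.15 24 h after 20 Gy, and Rb1 by 1.76 24 h after 5 Gy. Cdkn2a, encoding p16 and p19Arf, was 34.5 FPKM in the controls and 13.8 and 13.1 FPKM at 24 h, and Cdkn2c fell by 2.97 24 h after 5 Gy. Timp1 was called as lower there (−4.85), with libraries that spread from 0.24 to 53.8 FPKM, compared with 108 to 161 FPKM in the controls. Il6, a cytokine of the senescent secretome, was at most 0.45 FPKM on average in any group. Of the same list, Cxcl1 was 1.67 FPKM in the controls and 6.92 and 8.05 FPKM 24 h after 5 Gy and 20 Gy. Vegfa was 6.08, 12.0 and 8.90 FPKM in these groups, and Ccl2 was 1.97, 0.37 and 1.46 FPKM.

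Of 24 proliferation genes, 23 were tested, with 19 lower 12 h after 5 Gy, 12 lower 12 h after 20 Gy, and 20 lower and 1 higher at 24 h after either dose, beside the shares of all genes given above. Their medians were −1.34, −0.79, −2.52 and −2.05 in that order, beyond the medians of the 8 lamina and HMG genes. Top2a, the DNA topoisomerase of dividing cells, was 25.7 FPKM in the controls, 10.9 FPKM 12 h after 5 Gy and 1.01 FPKM 24 h after 5 Gy, and Ccna2 fell by 4.2 24 h after 5 Gy. The summed proliferation list was 480 to 657 FPKM in the controls, 186 to 228 and 255 to 348 FPKM 12 h after 5 Gy and 20 Gy, and 136 to 147 and 159 to 210 FPKM 24 h after them. Like Lmnb1, Tmpo and Hmgb2, it was higher after 20 Gy than after 5 Gy at 12 h without overlap. At 24 h, the proliferation sum was again higher after 20 Gy without overlap. There, Lmnb1, Tmpo and Hmgb2 differed between the doses by 0.09, −0.04 and 0.19, with overlapping libraries. The part of proliferation in the differences of the 8 genes was not tested.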

How the data were processed

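The sources used here describe poly-A RNA of 15 libraries, trimmed with Trimmomatic, mapped by the authors with HISAT2 2.0.13 to Rnor_6.0 and assembled with StringTie. The deposited table gives FPKM per transcript and library, normalized by the authors for transcript length and library size, and FPKM were used without rescaling. The authors also name kallisto and edgeR, whose counts were not analysed here. For 37367 genes, the FPKM of transcripts were summed, and 4738 transcripts stayed unassigned.

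Genes with a mean FPKM of at least 0.5 were tested in limma 3.58.1 (R 4.3.3, trend on the mean) on log2(FPKM + 1), the scale of all fold changes, with the 5 group means as terms (10 residual degrees of freedom) and Benjamini-Hochberg adjustment over 17895 genes. The model was tested on simulated data of 17895 genes for 20 Gy at 24 h against the control, with normal noise and 200 changed genes. Of the genes changed by a log2 of 2, 98.0% were called, and of those changed by 1, 80.4%, 0 with the wrong sign. Among the unchanged genes, 6 were called. In the data, 40.3% of genes were called in this comparison, so the recovery there may differ. Ratios and single genes were compared with exact permutation tests (scipy 1.17.1).

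Depth was read from short transcripts of up to 300 bases, whose low FPKM lay within 0.05 of a whole multiple of 1 step for 51.0% to 65.4% of values, compared with about 10% at other steps. Each member had an estimated 306 to 19650 reads of 150 bases per library. The members, the lists and the rule for named genes (all members; from each list up to 6 called genes with the largest 24 h difference; the 3 genes most like each member) were chosen with earlier results of these data known. A gene that this rule names is not reported here. Genes named for comparison outside that rule (Ager, Tlr4, Lin28b, Hspa8, Cdkn2a, Il6, Cxcl1, Vegfa, Ccl2 and the markers) were picked from the lists after their values were seen. Replicate numbers are shared by the groups, but deviations of same-numbered libraries had r of −0.18 to 0.23 (median 0.0088 over 30 pairs), so they were not treated as pairs. Alternatives were TPM, quantile normalization, a pseudocount of 0.1, other filters and fold limits, named rows only, separate fits, no trend, the replicate block and leaving out each library. Promoter letters came from RefSeq tables (GRCr8).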

Additional observations from a re-analysis of the deposited data

Results flagged for a closer look

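Lmnb2 differed between the times, since its difference from the controls was below 0 in the 12 h groups and above 0 in the 24 h groups. The change from 12 h to 24 h was 0.96 after 5 Gy (limma adjusted p = 6.86e-05) and 0.80 after 20 Gy (limma adjusted p = 0.000293) on the log2 scale, and in both doses all 3 libraries at 24 h were above all 3 at 12 h. The annotated 2067-base transcript alone gave a change of 0.69 after 5 Gy (limma adjusted p = 0.00156), which was called, and of 0.20 after 20 Gy, which was not. Hmgb2 also differed between the times after 5 Gy, by 1.11 (limma adjusted p = 0.000157), with a smaller difference from the controls at 24 h than at 12 h and no overlap between the libraries of the 2 times. Heat shock and fibroblast sums differed between the same groups, and their part in these results was not tested.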

How the results depend on the processing

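Counts of called members depended most on the fold limit and on the unnamed transcripts. With a fold change of at least 2, the count 12 h after exposure went from 6 to 3 for 5 Gy and from 2 to 0 for 20 Gy, and it was 2 in place of 5 from 12 h to 24 h after 5 Gy and 1 in place of 6 from 12 h to 24 h after 20 Gy. With adjusted p only, it was 5 at 12 h after 20 Gy. Using only rows with a gene name, it was 0 at 12 h after 20 Gy, 3 in place of 6 in both 24 h comparisons and 2 from 12 h to 24 h after 20 Gy. In that setting the change of Hmga2 from 12 h to 24 h after 5 Gy turned to 0.41 (limma adjusted p = 0.838). Quantile normalization ended the calls of Hmgb2 at 12 h after 20 Gy (−0.54) and of Lmna from 12 h to 24 h after 5 Gy (−0.44), and added Lmnb2 at 12 h (−0.59) and Hmgb2 from 12 h to 24 h (0.60) after 20 Gy. After scaling to TPM, 3 members were called from 12 h to 24 h after 5 Gy. Leaving out each library in turn gave 4 to 6 members at 12 h after 5 Gy, 0 to 3 at 12 h after 20 Gy (0 without the third 20 Gy 12 h library), 6 to 6 in both 24 h comparisons, 4 to 5 from 12 h to 24 h after 5 Gy, 4 to 6 after 20 Gy, and 0 to 0 between the doses. Member transcripts called were 3 to 5 in place of 6 at 12 h after 5 Gy (3 without control replicate 2 or without the third 5 Gy 12 h library), 0 to 1 at 12 h after 20 Gy, 7 to 9 and 8 to 10 at 24 h, and 0 at 12 h after 20 Gy with a pseudocount of 0.1. The cause of these shifts was not tested.

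With the replicate number as a block, 7 members were called at 12 h after 5 Gy, with Hmga2 added, and no other member call changed. TPM moved the median of all genes 24 h after 5 Gy from −0.05 to 0.06, and quantile normalization that 24 h after 20 Gy from −0.14 to −0.03. From 12 h to 24 h after 20 Gy, 2526 of 6489 calls over all genes were higher, and 3039 of 6106 with quantile normalization. Between the doses at 24 h, 171 of 433 calls were higher, compared with 199 of 350 with quantile normalization, 201 of 727 with TPM and 24 of 37 in separate fits. At 12 h, 21 of 22 were higher, compared with 46 of 48 with quantile normalization and 1 of 2 in separate fits. For the interaction, 46 of 99 were higher, compared with 52 of 85 with quantile normalization and 38 of 126 with TPM, and none of these calls was a member. Fragments scaled to library size without division by length, an alternative chosen after seeing the data, kept the calls and added Lmnb2 at 12 h after 20 Gy (−0.63). A ratio to Hmgb2 taken from the chromosome 12 locus, also chosen after seeing the data, moved from 12 h to 24 h after 5 Gy by −1.78 on the log2 scale, compared with −1.85 for the Hmgb1 row.

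Depth in the sense of reads per gene was estimated, since counts were not analysed here. With 3 libraries a group, an exact permutation p cannot go below 0.1. Paralog copies and overlapping transcript models limit the values of Hmgb1, Hmga2 and the single transcripts.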
